A study of Mus musculus with 3 samples.

Results

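The troponins and tropomyosins are the regulatory proteins of the thin filament of striated muscle, and 10 of their genes were followed here on arrays of soleus RNA from Mettl21c mutant and wild-type mice. The genes were Tnnt1, Tnnt2, Tnnt3, Tnni1, Tnni2, Tnnc1, Tnnc2, Tpm1, Tpm2 and Tpm3. They were found by matching the transcript accession of each probe, without its version, to gene symbols, which gave 19 probes of the 55681 non-control probes on the array and 10 of 21613 named genes. All 19 probes are described below, of which 10, from 7 of the genes, passed the filters on dim and outlier-flagged spots and were tested. Each probe was printed as 1 spot.

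In a resting muscle tropomyosin lies along the actin filament and hides the sites where myosin heads bind. Calcium released in the fibre binds troponin C, which pulls the inhibitory subunit troponin I off actin, and troponin T anchors the complex to tropomyosin, so that tropomyosin moves aside and the muscle contracts. Slow, fast and cardiac fibres use different genes for the same subunit. Tnnt1, Tnni1 and Tnnc1 are the slow troponin T, I and C (Tnnc1 is also the cardiac one), Tnnt3, Tnni2 and Tnnc2 are the fast ones, and Tnnt2 is the cardiac troponin T, which immature skeletal muscle also makes. Tpm3 encodes the tropomyosin of slow fibres, Tpm1 that of fast fibres and heart, and Tpm2 the beta chain, found in both slow and fast fibres. The soleus is a postural muscle of the hindlimb that holds both slow and fast fibres, so both sets of genes are used in it.

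The KO group consisted of male C57BL/6 mice aged 8 weeks that were homozygous for a LacZ allele of Mettl21c (Mettl21cLacZ/LacZ), and the WT group of wildtype males of that strain and age. All were on regular chow. The labels give the tissue as SOL, taken here to mean soleus. There were 3 biological replicates of each genotype, paired as 3 arrays, each with 1 KO sample in Cy5 (red) and 1 WT sample in Cy3 (green). The dyes were never exchanged, so the preference of a probe for a dye and the genotype cannot be told apart. Whole muscle was measured, where fewer cells of a type and less RNA per cell cannot be told apart. Defining markers of the tissue were present: in both channels 9 of 10 slow fibre markers and 10 of 12 fast fibre markers were well above background on all 3 arrays. Of 6 cardiac markers 1 was, Myh6.

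Promoter sequences are shown for a slow and a fast gene of one subunit, Tnnc1 and Tnnc2, and for Tnnt1, the tested member with the highest ratio below. They are the 250 bases before the annotated gene start, 5′ to 3′ on the gene's strand, from RefSeq with build GRCm38.p6. That table held windows for 8 of the 10 genes. Capitals mark the motifs searched on both strands: the E-box CANNTG, bound by myogenic basic helix-loop-helix factors, the MCAT element CATTCCT and the TATA box TATAAA. The MEF2 element was searched as CTAWWWWTAR and the CArG element as CCWWWWWWGG, where W is A or T and R is A or G. Tnnc1 lies at chr14:31208062-31208311 on the plus strand, Tnnc2 at chr2:164779735-164779984 on the minus strand and Tnnt1 at chr7:4515976-4516225 on the minus strand.
Tnnc1: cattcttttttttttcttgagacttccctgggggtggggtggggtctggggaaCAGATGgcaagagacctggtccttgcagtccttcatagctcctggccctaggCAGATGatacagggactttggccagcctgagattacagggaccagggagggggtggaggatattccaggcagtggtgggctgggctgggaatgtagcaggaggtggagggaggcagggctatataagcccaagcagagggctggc
Tnnc2: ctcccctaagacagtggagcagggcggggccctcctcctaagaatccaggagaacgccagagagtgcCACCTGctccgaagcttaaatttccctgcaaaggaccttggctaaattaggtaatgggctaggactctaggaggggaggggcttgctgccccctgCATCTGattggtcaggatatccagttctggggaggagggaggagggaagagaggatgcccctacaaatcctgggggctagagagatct
Tnnt1: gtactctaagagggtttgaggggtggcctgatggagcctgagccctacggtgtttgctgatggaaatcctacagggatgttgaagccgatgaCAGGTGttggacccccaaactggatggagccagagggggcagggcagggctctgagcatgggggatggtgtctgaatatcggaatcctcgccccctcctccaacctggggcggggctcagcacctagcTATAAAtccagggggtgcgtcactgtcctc
The slow gene Tnnc1 held 2 E-boxes, starting 197 and 145 bases before the gene start, and the fast gene Tnnc2 also held 2, at 183 and 88 bases. Tnnt1 held 1 E-box, at 158 bases, and a TATAAA match at 30 bases. Only that exact string was searched, so other forms of the TATA box are not marked in any window. E-boxes are common, with at least 1 in 66.2% of all 32851 windows of this length, while TATAAA was in 12.4%, MCAT in 4.51%, MEF2 in 1.69% and CArG in 1.47%. MEF2 and CArG matches were absent from all 11 member windows, and MCAT was present in 1 window each of Tnnt2 and Tpm1. These matches only describe the letters of the windows.

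Array 3 stood apart from the others in a way that touched several of these probes. The surface was divided into 96 blocks of 32 rows by about 20 columns, and the WT intensities of the spots in a block were correlated with those at the same places on array 1. For array 2 this correlation was at least 0.91 in every block. For array 3 it was below 0.75 in 39 blocks, here called low-match blocks, with a median of 0.596 there and 0.859 in the other blocks. In 11 of the 39 the spots of array 3 correlated better with array 1 at the row before their own than at their own row. Of spots bright on arrays 1 and 2 (median WT signal over 200), 17.9% were not well above background in the WT channel of array 3 within low-match blocks, against 0.798% outside them. The low-match blocks hold 39.6% of the non-control spots and 9 of the 19 member probes: the only Tnni1 probe, the dimmer probe of each of Tnnt1, Tnnt3 and Tpm2, 4 of the 5 Tpm1 probes and 1 of the 3 Tpm3 probes. Outlier flags on this array marked 3 member probes, 1 each of Tnni2, Tpm1 and Tpm3. The block limit was set after seeing these values, and the means below for members and named genes with such spots are given with and without them where they were tested, while list medians keep all spots.

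**Figure D1:**
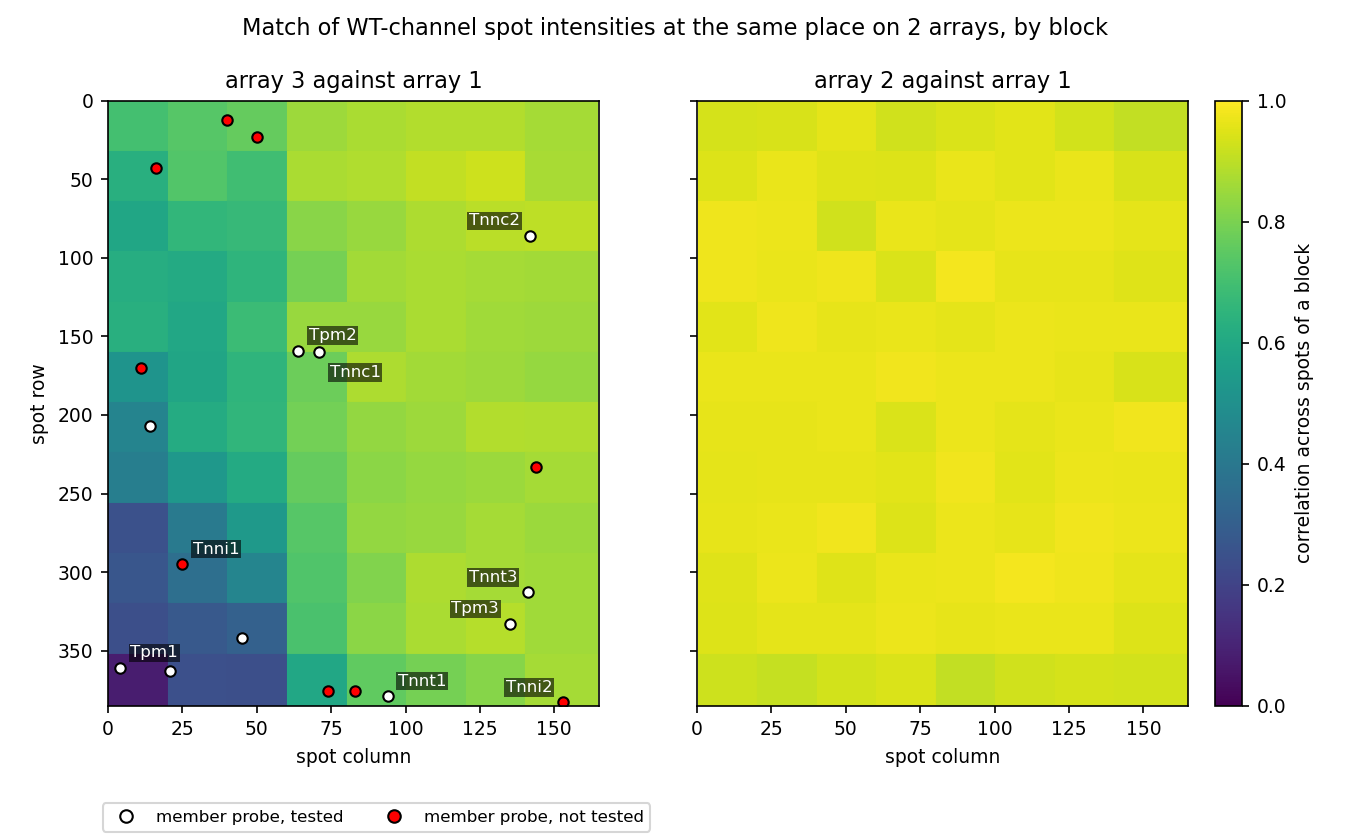
Correlation across spots of the WT intensity of array 3 (left) and array 2 (right) with array 1 at the same place, by block of the array surface (spot row against spot column), with member probes as points and the brightest tested probe of each gene, Tnni1 and Tnni2 labelled. Array 2 lies at 0.91 or above in every block, while the left columns of array 3 are low, and Tnni1 and the brightest tested Tpm1 probe lie there.

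The targeted gene had less signal in KO soleus. Mettl21c, a member of a family of lysine methyltransferases, had processed signals of 200, 32.3 and 45.4 in KO, against 7530, 3680 and 4490 in WT. It was well above background on 1 array in KO and on 3 in WT. After loess it had log2 ratios of KO over WT of -2.93, -1.96 and -2.46 on arrays 1 to 3 (mean -2.45, SD 0.48, limma adjusted p = 0.0289). These ratios are smaller in size than those of the processed signals, on a scale where the offset of 50 shrinks ratios of dim spots. Of the 8391 probes tested this was the 1 that passed an adjusted p of 0.05, or 0.0119%. Unadjusted p was under 0.05 for 470 probes with a positive and 673 with a negative ratio. Without array 3, with the scanner's processed signals and with the deposited ratios, 0 probes passed. The same held with no filter on dim probes, with both channels required above background and with the 6 channels as separate samples. The Mettl21c call was thus lost in each of these settings. The files do not say where its probe lies relative to the replaced part of the gene.

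None of the 10 tested troponin and tropomyosin probes passed the adjusted threshold in limma, against that background of 0.0119%. Their mean log2 ratios ran from -0.24 to 0.40, with 5 above and 5 below 0 and a median of 0.06, beside a median of -0.003 over all tested probes, 4086 above and 4305 below 0. Adjusted p ran from 0.215 to 0.945. Unadjusted p was under 0.05 for 4, beside 1143 of all 8391 tested probes. All 4 had a positive mean: the brightest probes of Tnnt1, Tnnt3 and Tpm1 and the Tnnc1 probe, which are 2 slow and 2 fast genes. This member count changed with the processing. It was 1 with an offset of 16, 1 without background subtraction and 0 with processed signals, beside 1051, 991 and 937 of all tested probes. With outlier-flagged spots kept it was 6 of 13 member probes, beside 1200 of all 8763 tested probes. Levels below are log2 intensities after background correction with an offset of 50 and loess within each array. They are compared only within an array and a probe, since different probes do not share a scale.

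**Figure D2:**
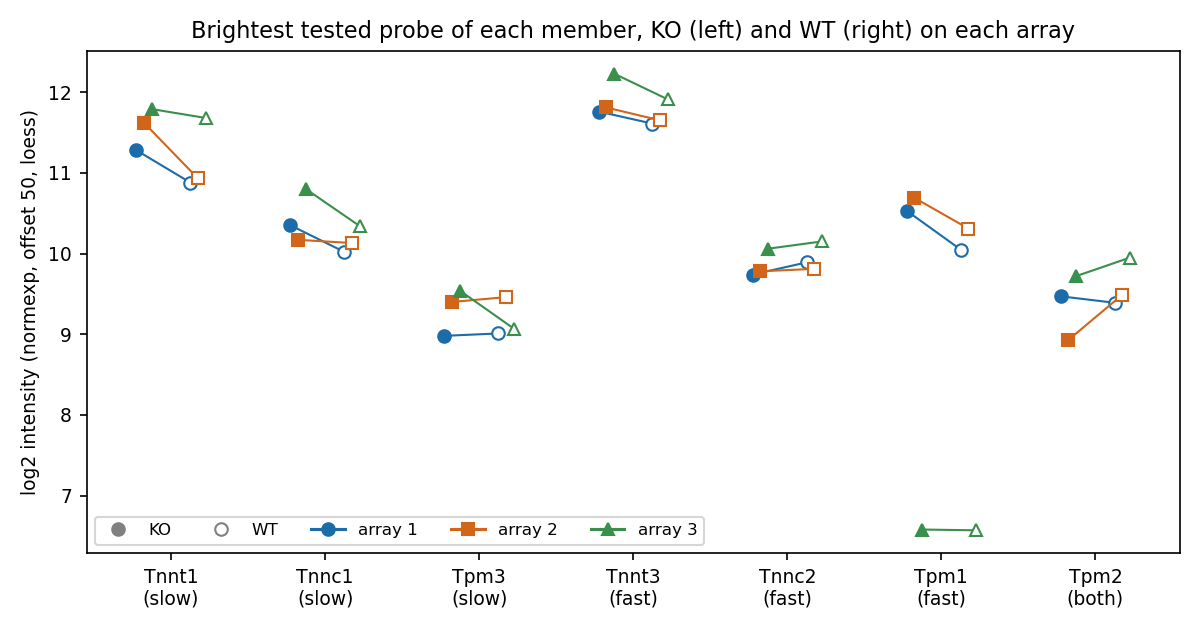
Log2 intensity of the brightest tested probe of each of 7 members, KO (filled, left) joined to WT (open, right) on each of 3 arrays, after normexp with an offset of 50 and loess. KO lies above WT on all 3 arrays for Tnnt1, Tnnc1, Tnnt3 and Tpm1, although on array 3 the Tpm1 levels are 6.58 and 6.57, and below WT on all 3 for Tnnc2. The Tnnt1 ratio on array 3 turned to -0.02 when the spots of low-match blocks were left out of the loess.

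Troponin T is the subunit that ties the complex to tropomyosin. The brighter probe of the slow gene Tnnt1 (A_55_P2088385) had 11.28, 11.62 and 11.79 in KO on arrays 1 to 3, against 10.88, 10.93 and 11.68 in WT. With all spots in the loess KO was above WT on every array, while the ranges of the groups overlapped. The log2 ratio was 0.40 (SD 0.29, n = 3 arrays, 95% interval 0.13 to 0.67, limma adjusted p = 0.215), and on single arrays 0.40, 0.68 and 0.11. This probe lies outside the low-match blocks. With the spots of those blocks left out of the loess, its array 3 ratio was -0.02 and its mean 0.36. The other Tnnt1 probe (A_55_P2027521) had 8.33, 8.24 and 8.90 in KO, against 8.39, 8.30 and 9.37 in WT. It was lower in KO on every array, by 0.06, 0.05 and 0.47 on the log2 scale, and array 3, where it lies in a low-match block, gave the widest gap. Its mean ratio was -0.19 (SD 0.24, n = 3, limma adjusted p = 0.468), and -0.06 (n = 2, adjusted p = 0.799) when the array 3 spots of low-match blocks were left out. The Tnnt1 probes thus had means of opposite sign.

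For the fast gene Tnnt3 the brighter probe (A_51_P345699) had 11.76, 11.81 and 12.23 in KO, against 11.61, 11.65 and 11.91 in WT. The ratios were 0.15, 0.15 and 0.33, all with KO higher and close together, though the group ranges overlapped, with a mean of 0.21 (SD 0.10, n = 3, 95% interval 0.04 to 0.38, limma adjusted p = 0.290). The dimmer probe (A_55_P2088375) had 8.13 and 8.13 in KO on arrays 1 and 2, against 8.25 and 8.30 in WT. On array 3, in a low-match block, its raw signals were 20 in KO over a background of 17 and 37 in WT over a background of 30. The mean ratio of this probe was -0.07 (SD 0.12, n = 3, adjusted p = 0.729), and -0.14 (n = 2, adjusted p = 0.471) without that spot. Here too the brighter and the dimmer probe had means of opposite sign. Tnnt2, the cardiac troponin T, stayed near background in both channels of all 3 arrays and never counted as well above it, with raw signals of 19, 20 and 17 in KO over backgrounds of 18, 18 and 17, and 39, 33 and 35 in WT over 33, 33 and 30. No ratio is given for it.

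Troponin I, which blocks contraction when calcium is low, did not pass the filters for either fibre type with all 3 arrays. The slow gene Tnni1 has 1 probe, and on arrays 1 and 2 its levels were 8.97 and 8.66 in KO, against 8.79 and 8.95 in WT. KO was higher on array 1, with a ratio of 0.18, and lower on array 2, with a ratio of -0.29. On array 3 the raw signals were 17 in KO over a background of 17 and 28 in WT over a background of 30, where arrays 1 and 2 had given 324 and 234 in KO and 589 and 719 in WT. With the array 3 spots of low-match blocks left out, Tnni1 was tested on 2 arrays at a mean of -0.06 (95% interval -0.37 to 0.25, adjusted p = 0.882).

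The fast gene Tnni2 has 1 probe, which carried an outlier flag on array 3. Its levels were 12.03, 14.77 and 12.90 in KO, against 11.61, 13.60 and 12.18 in WT. Array 2 was high in both channels, with raw signals of 14187 in KO and 24374 in WT, where arrays 1 and 3 had 2632 and 5063 in KO and 4858.5 and 6899 in WT. KO was above WT on each array, by 0.41, 1.16 and 0.72 on the log2 scale. The ratios of the scanner's own processed signals were 0.01, 0.14 and 0.16, smaller than with normexp and loess on every array. The array 3 spot of Tnni2 lies outside the low-match blocks and was left out of tests for its outlier flag. The fit without low-match spots needed only 2 arrays. There the Tnni2 mean over arrays 1 and 2 was 0.79 (95% interval 0.36 to 1.22, limma adjusted p = 0.132).

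Troponin C, the calcium sensor, was measured by 1 probe for each gene, outside the low-match blocks, and these are the genes whose promoters are printed above. The slow and cardiac gene Tnnc1 had 10.35, 10.17 and 10.80 in KO, against 10.02, 10.13 and 10.34 in WT. Its ratios of 0.34, 0.04 and 0.46 all had KO higher, though array 2 was near 0 and the group ranges overlapped, and averaged 0.28 (SD 0.22, n = 3, 95% interval 0.05 to 0.50, limma adjusted p = 0.289). The fast gene Tnnc2 had 9.74, 9.78 and 10.06 in KO, against 9.89, 9.81 and 10.15 in WT. Its ratios of -0.14, -0.02 and -0.09 all had KO lower by less than the range within either group, and averaged -0.09 (SD 0.06, n = 3, 95% interval -0.24 to 0.07, adjusted p = 0.637).

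Of the tropomyosins, Tpm3, the slow one, was tested at 1 of its 3 probes (A_55_P2090209), with 8.98, 9.40 and 9.54 in KO, against 9.01, 9.46 and 9.07 in WT. The groups overlapped: arrays 1 and 2 were near 0, at -0.02 and -0.05, and array 3 gave 0.46. The mean was 0.13 (SD 0.29, n = 3, 95% interval -0.14 to 0.40, limma adjusted p = 0.675), and -0.04 without array 3. A second Tpm3 probe (A_55_P2090205) gave 0.03 and 0.15 on arrays 1 and 2, where its KO levels were 9.88 and 10.09 and its WT levels 9.85 and 9.94. On array 3, in a low-match block, its raw signals were 18 in KO and 29 in WT, over backgrounds of 17 and 29. Leaving that spot out gave this probe a mean of 0.09 (n = 2, 95% interval -0.11 to 0.29, limma adjusted p = 0.667). The third probe (A_55_P2246235) gave -0.31 and -0.63 on arrays 1 and 2 and had an outlier flag on array 3. Without that spot its mean was -0.47 (95% interval -0.72 to -0.22, adjusted p = 0.125), so that the Tpm3 probes also differed in sign.

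Tpm1, the tropomyosin of fast fibres and heart, has 5 probes, of which 3 were well above background in at most 1 channel of 1 array. The brightest (A_55_P2187038) had 10.53 and 10.69 in KO on arrays 1 and 2, against 10.05 and 10.31 in WT, so that KO lay above both WT values, with ratios of 0.48 and 0.39. On array 3 it lies in the block with the lowest match and its raw signals were 48 in KO and 82 in WT, where arrays 1 and 2 had 966 and 973 in KO and 1532 and 2051 in WT. Its mean was 0.29 (SD 0.25, n = 3, limma adjusted p = 0.296), and 0.43 (n = 2, 95% interval 0.24 to 0.63, adjusted p = 0.0945) without the array 3 spot. The next brightest (A_55_P2187043) gave 0.25 and 0.05 on arrays 1 and 2 and had an outlier flag on array 3. Without array 3 the probe averaged 0.15 (adjusted p = 0.498).

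Tpm2, the beta tropomyosin, had 9.47, 8.93 and 9.72 in KO at its brighter probe (A_55_P2121408), against 9.39, 9.49 and 9.95 in WT. KO was higher on array 1, by 0.07, and lower on arrays 2 and 3, by 0.56 and 0.24 on the log2 scale, and the groups overlapped. The mean was -0.24 (SD 0.32, n = 3, 95% interval -0.53 to 0.05, limma adjusted p = 0.452), and -0.08 without array 2. The other probe was dim, between 6.00 and 6.18 in every sample, with a mean ratio of -0.02, and also -0.02 without its array 3 spot in a low-match block, on a scale where the offset shrinks ratios of such probes.

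**Figure D3:**
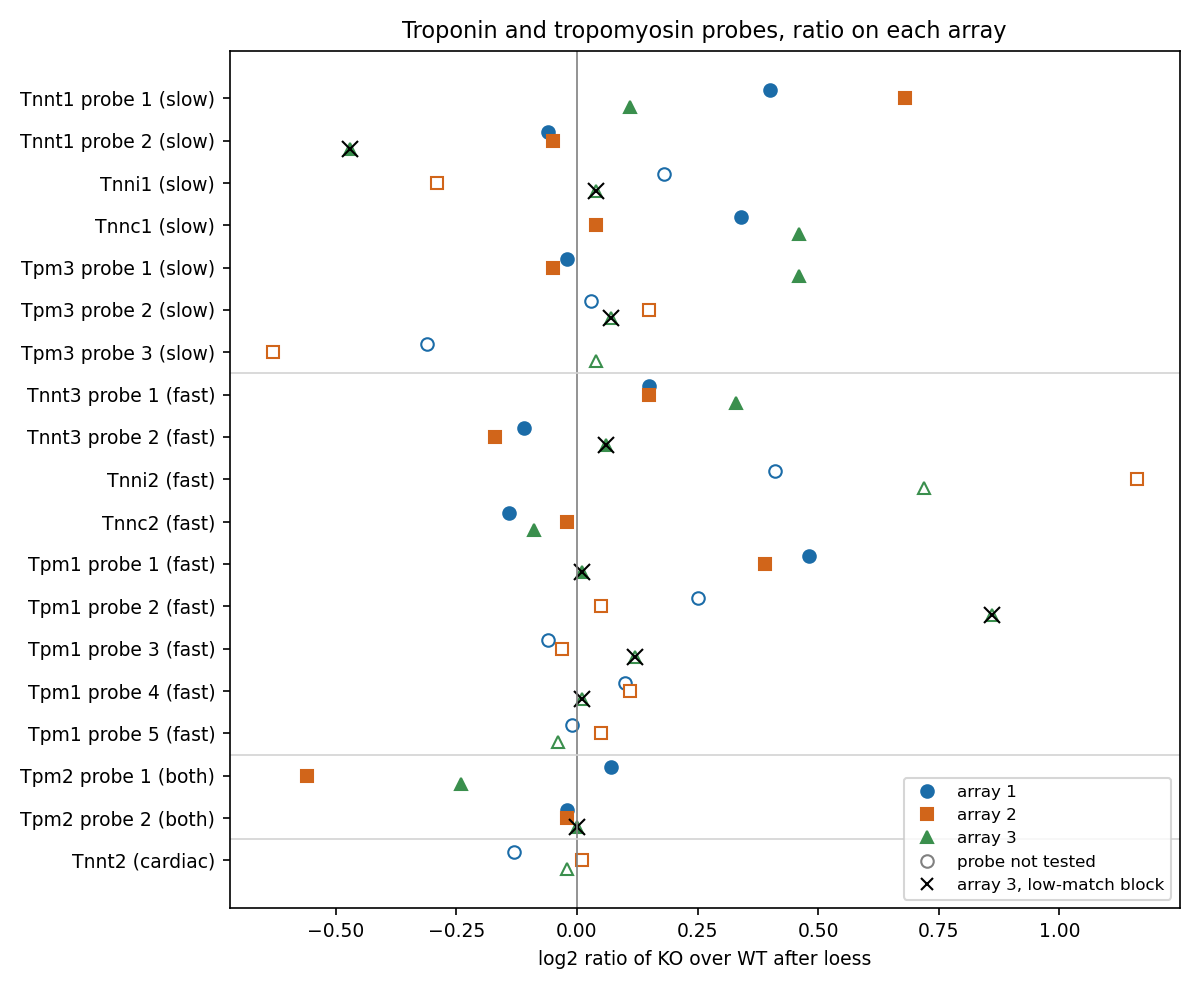
Log2 ratio of KO over WT on arrays 1, 2 and 3 for all 19 probes, grouped as slow, fast, both and cardiac, probes of a gene in order of brightness. Filled points are tested probes, open ones are not, and crosses mark array 3 values from low-match blocks. Ratios of tested probes lie between -0.56 and 0.68 on single arrays, and slow and fast genes both have points on either side of 0.

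Whether slow and fast isoforms moved apart was read from the difference of their log2 ratios on the same array, which needs no common scale between probes. Slow and fast name the genes here, since the transcripts of a gene that each probe reads were not examined. With 3 arrays an exact test could not give p below 0.25, so these are given without a test. Tnnt1 minus Tnnt3 was 0.25, 0.53 and -0.22 on arrays 1 to 3 (mean 0.19, SD 0.38), with array 3 opposite to the others. Tnnc1 minus Tnnc2 was 0.48, 0.06 and 0.55 (mean 0.36, SD 0.26), with the slow gene ahead on every array, though by little on array 2. Tpm3 minus Tpm1 was -0.50, -0.44 and 0.45 (mean -0.16, SD 0.53), where the array 3 value rests on the Tpm1 spot in the low-match block. Without arrays 1, 2 and 3 in turn it averaged 0.01, -0.03 and -0.47. In the same order Tnnt1 minus Tnnt3 averaged 0.16, 0.02 and 0.39, and Tnnc1 minus Tnnc2 0.30, 0.51 and 0.27. For troponin I, with neither probe tested, Tnni1 minus Tnni2 was -0.24 and -1.46 on arrays 1 and 2, and on array 3 the Tnni1 spot was at background. The scanner's processed signals gave other directions on some arrays. There Tnnt1 minus Tnnt3 was 0.19, 0.41 and -0.54 and Tnnc1 minus Tnnc2 was 0.44, -0.06 and 0.47. Tnni1 minus Tnni2 was 0.26 on array 1 and -0.41 on array 2. Tpm3 minus Tpm1 was -0.02 and -0.21 on arrays 1 and 2 and -2.31 on array 3. The sign thus differed between the processings on array 2 for troponin C and on array 1 for troponin I. It also differed on array 3 for the tropomyosins, at 0.45 and -2.31, where the Tpm1 spot lies in the low-match block. Troponin I on array 3 is left aside, since the Tnni1 spot was at background.

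**Figure D4:**
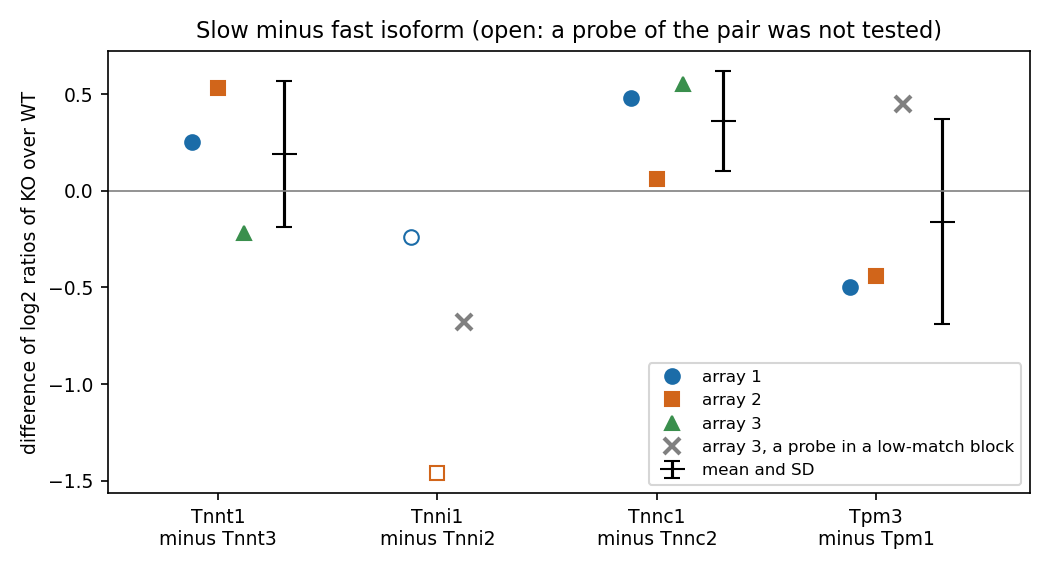
Difference between the log2 ratios of KO over WT of the slow and the fast gene of each subunit on arrays 1 to 3, with the mean and SD where both probes were tested. Crosses mark array 3 values with a probe in a low-match block, and for Tnni1 that spot is at background. The troponin C points are all above 0, the untested troponin I points of arrays 1 and 2 (open) are at -0.24 and -1.46, and the other pairs have points on both sides.

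The direction of most of the bright members depended on how each array was processed. Tnnc2 and Tpm2 kept a negative mean in every setting, from -1.02 to -0.06 and from -1.12 to -0.08. With loess, 5 of the 7 genes had a positive mean at their brightest tested probe. When each array was only centred on all its probes, every one of the 7 was negative, from -1.12 for Tpm2 to -0.52 for Tpm1, where the median over the tested probes itself lay at -0.443. There 9 of the 10 member probes passed as lower, beside 65.6% of all tested probes. Centred on the tested probes, which kept that median at -0.002, all 7 were still negative, from -0.68 for Tpm2 to -0.08 for Tpm1, and 4 of the 10 member probes passed as lower and 1 as higher. Of all tested probes 36.2% passed in that setting. With the processed signals, which the scanner software had dye-normalised, Tnnt1 was at -0.04 and Tnnt3 at -0.06, while Tnnc1 stayed at 0.20. Tpm1 reached 0.99 there, with 2.70 on array 3 against 0.16 and 0.09 on arrays 1 and 2.

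**Figure D5:**
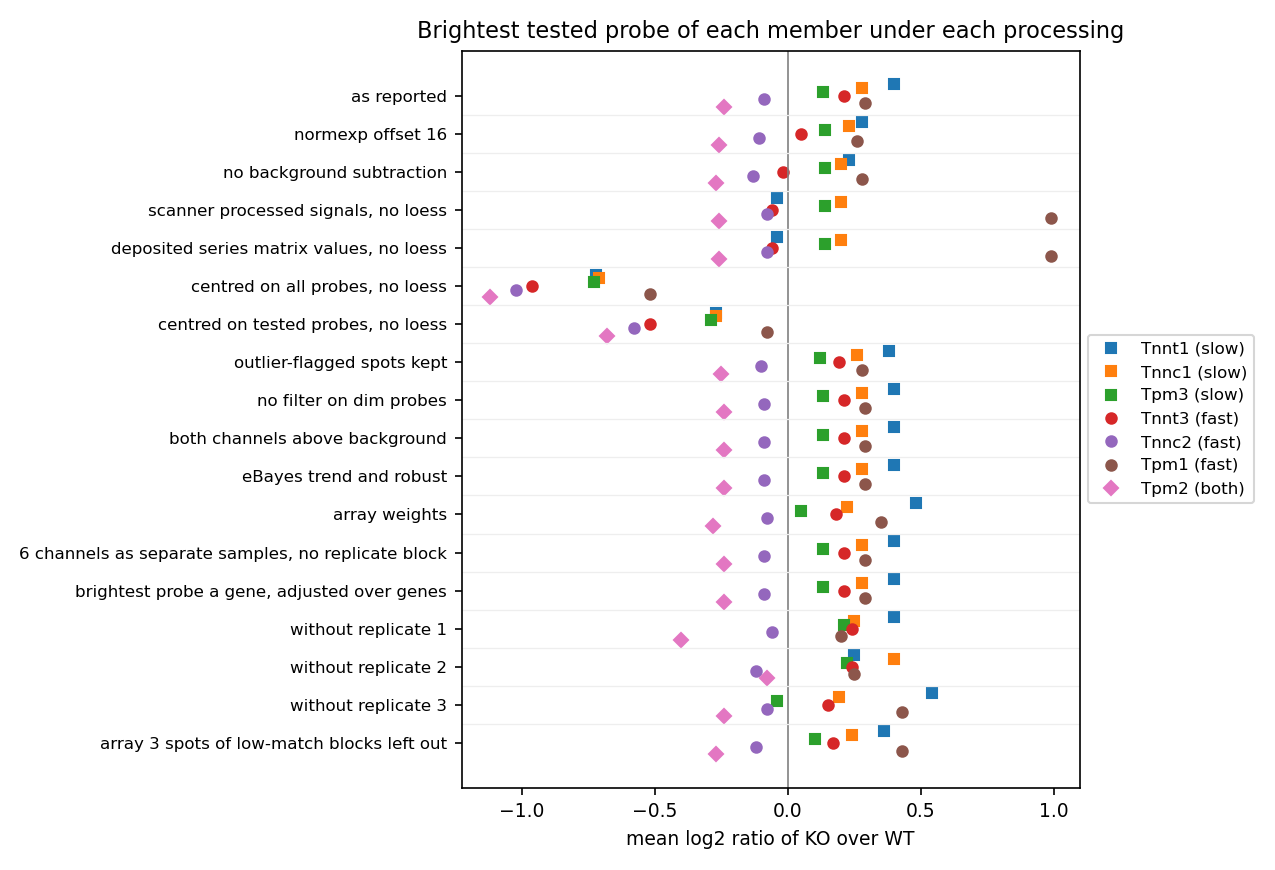
Mean log2 ratio of KO over WT at the brightest tested probe of 7 members under each processing, slow genes as squares, fast genes as circles and Tpm2 as diamonds. Apart from processed signals, matrix values and centring, the values lie between -0.40 and 0.54, the settings without loess that centre each array place all 7 below 0, and Tpm1 stands at 0.99 with the processed signals.

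Other genes of the thin filament and its anchors were taken from a list of 33, all on the array, with 24 tested. None of the 24 passed in limma, and 9 had a positive and 15 a negative mean at their brightest probe. The median was -0.05, beside -0.003 over all 7424 tested entries. Of these entries 5775 are named genes and the rest are transcripts or probes without a gene symbol. On the higher side the smallest p belonged to Capza1, part of the capping protein at the barbed end of actin, at 0.37 (SD 0.18, adjusted p = 0.155). Lmod3, which helps assemble thin filaments, stood at 0.22 (SD 0.14) and Capza2, another capping subunit, at 0.20 (SD 0.15). On the lower side Actg1, a cytoplasmic actin, stood at -0.72 (SD 0.35, adjusted p = 0.0994), and at -0.62 at its other tested probe. Nrap, which acts in myofibril assembly, stood at -1.14 (SD 0.68, adjusted p = 0.124) and Xirp2, an actin-binding repeat protein, at -0.28 (SD 0.20). For Nrap the arrays gave -0.40, -1.73 and -1.31, all with KO lower.

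Fibre type and cell type markers outside the troponins showed no call either. The 7 slow fibre markers tested had a median of 0.16, with 5 positive, and the 9 fast fibre markers a median of -0.23, with 7 negative. Over all 7424 tested entries 3647 were positive and 3777 negative, with a median of -0.003. Array by array the slow medians were 0.18, -0.05 and 0.32 and the fast medians -0.44, 0.01 and -0.19. Myl3, a slow myosin light chain, stood at 0.49 (SD 0.17) and Atp2a2, the slow calcium pump, at -1.14 (SD 0.41), although the other Atp2a2 probe stood at 0.09. The fast genes Mylpf and Atp2a1 stood at -0.46 (SD 0.27) and -0.65 (SD 0.45). The array 3 spots of these 4 probes, the brighter one for Atp2a2, lie in low-match blocks. Without them, on 2 arrays, Myl3 stood at 0.57, Atp2a2 at -0.94, Mylpf at -0.41 and Atp2a1 at -0.39, and none was called.

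Smooth muscle, which also makes Tpm1 and Tpm2, had 5 of 9 markers tested, all with a negative mean, a median of -0.12 and array medians of 0.05, -0.52 and 0.17. Tagln, an actin-binding protein of smooth muscle, gave -0.15, -1.25 and 0.17, and Myl9, its light chain, averaged -0.18. Tagln averaged -0.41, and -0.70 (n = 2) without its array 3 spot in a low-match block. Array 2 held the lowest value of Tagln and of the brighter Tpm2 probe alike, and the part of smooth muscle in the Tpm2 ratio was not tested. Of the other lists, 6 embryonic or regenerating muscle genes had a median of 0.09 (Ncam1 at 0.23 and Myog at 0.11), 5 tendon genes -0.19 (Fmod at -0.48 and Comp at -0.34), 3 endothelial genes 0.03 (Cdh5 at 0.23 and Pecam1 at -0.15) and 3 fibroblast genes 0.01 (Col3a1 at 0.07 and Col1a2 at -0.07). Comp and Pecam1 also lie in low-match blocks and stood at -0.52 and -0.11 (n = 2) without those spots. The cardiac gene Myh6 stood at 0.03.

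Among 5774 other named genes the patterns nearest to the brighter Tnnt1 probe over the 3 arrays were Ndufa1, Acaa2 and Tm4sf1, at Euclidean distances of 0.152, 0.155 and 0.190 on the log2 scale. Those nearest to Tnnt3 were Bcl10, Ints6l and Tmed2, at 0.011, 0.019 and 0.024. With 3 arrays such likeness is a weak description: 41 genes lay within 0.1 of Tnnt3, and 0 within 0.1 of Tnnt1.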

How the data were processed

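Each deposited scanner file holds spot and background intensity in both channels and a processed signal. Per the file headers, Feature Extraction 12.0.3.1 wrote these intensity columns; the submitters' processing notes give version 11.5 of Agilent Feature Extraction. The columns name the processed signal as corrected for background and for dye. The deposited series matrix holds log10 ratios of KO over WT, equal to the scanner files to within 5e-10 on arrays 1 and 2 and 0.005 on array 3; its direction follows the dyes, and its column medians are 0. All arrays lay on 1 slide.

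Median intensities were corrected with normexp (offset 50) and loess per array, giving weight 0 to controls and to outlier-flagged spots (536, 572 and 1002 on arrays 1 to 3), in limma 3.58.1 and R 4.3.3. Flagged spots were left out of tests. The 8391 of 55681 probes tested had a value on every array and 1 channel or both well above background throughout. Of non-control spots, 22.5% to 22.9% were well above background in KO and 20.4% to 23.6% in WT, and the number of arrays limits precision. The log2 ratio was tested against 0 with lmFit and eBayes, 2-sided, with Benjamini-Hochberg adjustment over all tested probes at 0.05. SD values are between arrays. The files name no genome build, and names came from RefSeq's GRCm38.p6 genes, matching 28664 of 29472 RefSeq probes. The array pairs the samples; ratios of arrays correlated across probes at 0.347 (1 and 2), 0.210 (1 and 3) and 0.335 (2 and 3), as a description. Named genes were all members, Mettl21c, by smallest p 3 thin filament genes per direction and 2 per marker list, and the 3 nearest patterns to Tnnt1 and to Tnnt3. Alternatives changed the background correction, normalisation, filter, moderation, weights, block and arrays. The members, lists and tests were chosen with earlier results of these data known. The steps were tested on simulated data that held no low-match blocks and no dye trend with intensity, so that test does not bear on either.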

Additional observations from a re-analysis of the deposited data

How the results depend on the processing

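No member probe passed the adjusted threshold under any setting but the settings without loess that centre each array, where 9 and 5 of 10 passed, centred on all and on tested probes, against 5505 and 3041 probes in all. Over all tested probes limma called 21 with an offset of 16, 3 without background subtraction, 80 with trended robust moderation, 38 with array weights, 3 with the brightest probe of each gene and 2 with the array 3 spots of low-match blocks left out, an alternative chosen after seeing the data. It called 0 with processed signals (937 at an unadjusted p under 0.05), deposited matrix values (936), no filter (3494), both channels above background (1051) and the 6 channels as separate samples with no replicate block (321), and 10, 6 and 0 without arrays 1, 2 and 3 (1488 without array 3). The array is the replicate block in every other fit. Tnnt1 turned to -0.04 with processed signals and with matrix values, and to -0.72 and -0.27 centred on all and on tested probes. Tnnt3 turned to -0.06, -0.06, -0.96 and -0.52 in those settings, and to -0.02 without background subtraction. Centred on all and on tested probes Tnnc1 turned to -0.71 and -0.27, Tpm1 to -0.52 and -0.08 and Tpm3 to -0.73 and -0.29, and Tpm3 ran from -0.04 to 0.22 with an array left out. Tpm3 minus Tpm1 was -0.85 with processed signals and matrix values. The cause of these changes was not tested. Signal over background, or an outlier flag, kept 9 member probes out of the tests.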
